A study of Homo sapiens with 18 samples.

Results

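The genes described here encode the proteins of the cytosolic ribosome. They were chosen by name from the protein-coding entries of the 3 deposited FPKM tables (fragments per kilobase of gene length, scaled to the size of the library), as names beginning with RPL or RPS and a digit, together with RPLP0, RPLP1, RPLP2 and RPSA. Of 101 matching names, 10 RPS6K kinase genes were left out, and so were 6 paralogues with an L after the number whose mean FPKM was 1 or more. The rule left 85 of 58302 listed genes. They comprised 46 genes of the large 60S subunit, 31 of the small 40S subunit, 3 readthrough genes that join a ribosomal protein gene to its neighbour, RPS19BP1 (a binding partner of RPS19 and not a ribosomal protein), the Y-linked RPS4Y1 and RPS4Y2, and the paralogues RPL3L and RPL10L. At the threshold that divided the paralogues, RPL3L stood at a mean of 0.126 FPKM and RPL10L was listed at 0, whereas RPS27L, the lowest of those left out, stood at 3.07 FPKM. FAU also encodes a ribosomal protein, but its name does not match the rule.

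The ribosome translates mRNA, and its 60S and 40S subunits are built in the nucleolus from ribosomal RNA and about equal numbers of each ribosomal protein. Ribosomal protein mRNAs belong to the most abundant in growing cells. Most of them start with a 5′ terminal oligopyrimidine tract (TOP), through which mTOR signalling and LARP1 control their translation and stability.

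RNA of EBC-1, PC-9 and HCC827 cells was compared between shSYK cells, which stably carried a lentiviral shRNA against the tyrosine kinase SYK, and nc cells, which carried a negative control. All 3 are established human lung cancer cell lines, EBC-1 with MET amplification, PC-9 and HCC827 with an EGFR exon 19 deletion. The 18 libraries formed 6 groups of 3, and no other treatment, dose or time was labelled. The knockdown rested on 1 shRNA, and nothing in the labels says that the 3 libraries of a group came from separate cultures, so p-values measure the spread between these libraries, which may be technical.

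In all 3 lines the shSYK libraries lay below the nc libraries in SYK. Its level was 13.1 to 15.2 FPKM in nc and 7.25 to 7.63 FPKM in shSYK cells of EBC-1, 6.04 to 7.31 against 1.64 to 2.35 FPKM in PC-9, and 8.45 to 9.75 against 2.46 to 3.36 FPKM in HCC827. Depth recovered from the FPKM steps was 7920099 to 15729103 reads on genes per library. The epithelial markers EPCAM, KRT8, KRT18, KRT19 and CDH1 were at 31.0 FPKM or more in every library. Of 8 markers of blood, endothelium and fibroblasts, PTPRC, CD3E, HBB, VWF, COL1A2 and DCN stayed under 0.185 FPKM throughout. COL1A1 reached 8.29 FPKM, and PECAM1 reached 14.4 FPKM in PC-9 cells only, where it was lower in shSYK cells (4.28 to 5.34 FPKM) than in nc cells (12.7 to 14.4 FPKM). What part these markers had in the results below was not tested.

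The start sites are shown first because the tract at the start defines the class of mRNA to which most ribosomal protein genes belong. RefSeq starts (GRCh38.p14) were found for 62 of the 77 subunit genes. A tract, taken as a C at the start followed without a break by at least 4 further C or T on the transcribed strand, was present at a listed start of 46 of these 62 genes (74.2%), against 1356 of 27238 other genes (5.0%). The windows below hold 10 bases before and 16 bases from the start, with the tract in capitals, for members with the largest changes in the comparisons. The first 6 were higher in shSYK cells of at least 1 line, and the last 4 were lower.

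RPS26 (chr12:56041908-56041933, plus strand): acataacctcgattttcttccgccat
RPS13 (chr11:17077652-17077677, minus strand): ctctcgctctCCTTTCgttgcctgat
RPL36A (chrX:101391001-101391026, plus strand): ctcgcggtttCTTTCTTTCCgcgccg
RPL17 (chr18:49492450-49492475, minus strand): ttccctaagcagcctgaggtgagtgt
RPS24 (chr10:78033853-78033878, plus strand): aatcgtggttCTCTTTTCCTCCTTgg
RPS27A (chr2:55232678-55232703, plus strand): ggcgttcttcCTTTTCgatccgccat
RPL13 (chr16:89560672-89560697, plus strand): gggccgcttcCTTTCCgctcggctgt
RPL3 (chr22:39319608-39319633, minus strand): gccgaccggcctctaccggcgggatt
RPL10 (chrX:154398367-154398392, plus strand): ggaggagcgcCTCTTTCCCTTCggtg
RPS9 (chr19:54200848-54200873, plus strand): gcttccgcgcCTCTTTCTCagtgacc

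Members with and without a tract at the listed start occurred among the higher and among the lower genes. In EBC-1 cells the tract was found in 9 of 11 higher, 6 of 8 lower and 30 of 42 uncalled members with an entry. In HCC827 cells it was found in 2 of 3 higher, 7 of 9 lower and 37 of 50 uncalled members. RPS26 and RPL17 held no tract at the listed start, and RPL3 held a run of only 4 pyrimidines. RPS2 has no entry.

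Levels differed widely between the lines and between the members. The median of the 77 subunit genes over nc libraries was 147, 349 and 405 FPKM in EBC-1, PC-9 and HCC827 cells. Among the 75 genes at 1 FPKM or more in nc cells of every line, 70 were higher in PC-9 than in EBC-1 cells, with a median ratio of 2.85, and 74 were higher in HCC827 than in EBC-1 cells, with a median ratio of 3.16. FPKM was scaled within each library, and these ratios between lines are given as values without a test.

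The order of the members also differed by line. RPL13A and RPL8, both of the 60S subunit, led in EBC-1 (1080 and 1029 FPKM) and in PC-9 nc cells (2881 and 2549 FPKM), while RPL41, RPL35 and RPL7 led in HCC827 nc cells (2123, 1751 and 1744 FPKM). RPL7, also of the 60S subunit, was at 238 ± 5.04 FPKM in EBC-1 and 223 ± 39.6 FPKM in PC-9 nc cells (SD, n = 3 each), so its level in HCC827 cells was 7.33 times that in EBC-1 cells. RPS29 had the largest ratio of HCC827 to EBC-1 cells, 11.4, and RPL37 the largest of PC-9 to EBC-1 cells, 8.60. RPS20 was nearly level, at 213, 212 and 206 FPKM in EBC-1, PC-9 and HCC827 nc cells. The 5 highest genes held 28.7%, 27.7% and 21.4% of the summed FPKM of the subunit genes in these lines.

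RPS10, RPL36A and RPL17 were the 3 lowest subunit genes in every line, at 0.544, 1.06 and 1.83 FPKM in EBC-1 nc cells. They are also the 3 subunit genes with a readthrough gene on the same strand, so reads may have been divided or dropped where the annotations overlap, and their values are uncertain. The lowest library held 5 reads of RPS10, 17 of RPL36A and 46 of RPL17. Processed pseudogenes add to the uncertainty for every member, since 963 are listed and they took 0.991 to 3.39% of a library's FPKM.

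The share of the library taken by all members was then followed, since it shows whether the genes moved together on the scale of the library. In EBC-1 nc cells the members took 5.45, 5.45 and 5.53% of the FPKM sum, and in shSYK cells 5.68, 5.86 and 6.005%. All 3 shSYK libraries were above all 3 nc libraries, while the summed FPKM of the members itself was 15057 ± 479 in nc and 14676 ± 298 in shSYK cells (SD, n = 3). The FPKM sum over all genes, by which the share is divided, was 247177 to 253541 in shSYK and 267243 to 280477 in nc libraries. The mitochondrial genes, which enter the same sum, took 8.59 to 9.63% of it in nc and 7.29 to 7.49% in shSYK libraries of EBC-1, without overlap, and their part in the members' share was not tested. As a share of the recovered reads on genes, the members took 4.18 to 4.28% in nc and 4.24 to 4.51% in shSYK libraries. In this share the groups overlapped. A share of RNA cannot tell less RNA per cell from a different number of cells contributing it.

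In PC-9 cells the members took 12.99, 11.8 and 12.6% of the FPKM sum in nc and 13.3, 13.9 and 13.5% in shSYK libraries. The groups did not overlap in share, nor in share of recovered reads (9.45 to 10.7% in nc, 10.97 to 11.4% in shSYK libraries). In summed FPKM they did: nc replicate 1 had the highest value of the line (44463 FPKM) and nc replicate 2 the lowest (32516 FPKM), with shSYK libraries at 40748 to 43150 FPKM. The mitochondrial share was lowest in nc replicate 1 (7.62%) and highest in nc replicate 2 (11.1%), with 7.78 to 9.26% in shSYK libraries. In HCC827 cells the shares were 11.8, 11.6 and 12.4% in nc and 11.4, 11.8 and 11.98% in shSYK libraries, and the groups overlapped. With 3 libraries against 3, no exact permutation test could reach a two-sided p under 0.1, and none was run on these sums.

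**Figure D1:**
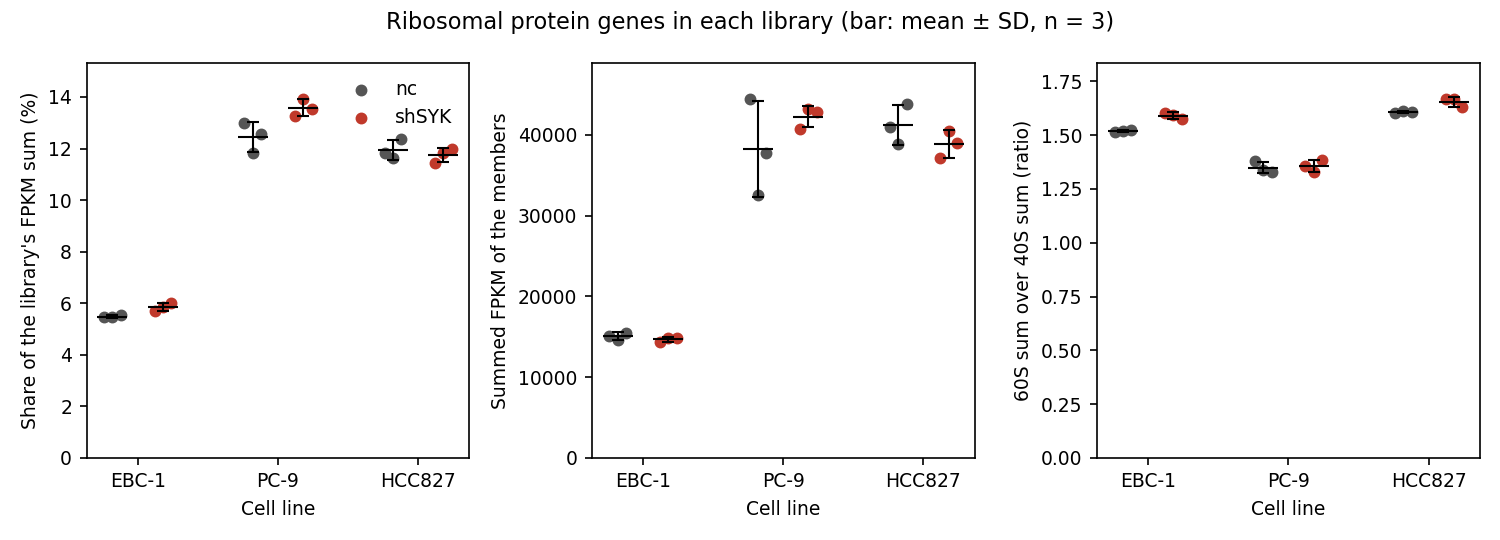
Points are libraries (grey nc, red shSYK) and bars are mean ± SD of 3. Left, percent of a library's FPKM sum taken by the members. Middle, their summed FPKM. Right, the FPKM sum of 60S genes over that of 40S genes. In EBC-1 the share separated the groups while the sum did not, and in PC-9 the nc libraries spread from 32516 to 44463 FPKM.

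The balance of the subunits was read from the same sums. In EBC-1 cells the 60S sum over the 40S sum was 1.52 ± 0.00416 (nc) and 1.59 ± 0.0154 (shSYK), and 1.61 ± 0.00362 against 1.66 ± 0.0223 in HCC827 cells (SD, n = 3), with no overlap of the groups in either line. In PC-9 cells the ratio was 1.35 ± 0.0255 in nc and 1.36 ± 0.0275 in shSYK cells, and the groups overlapped. The ratio does not depend on the scale of a library. What part base composition had in it was not tested. Medians by subunit with a trend on base composition removed are given below.

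Each library's position was also taken from the median over members of the log2 deviation from the line's mean. It ran from -0.04 to 0.06 in EBC-1, from -0.28 to 0.14 in PC-9 and from -0.09 to 0.12 in HCC827 libraries. Only 1 of 76 tested members was above its line mean in PC-9 nc replicate 2 and 2 of 76 in nc replicate 3, whereas 55 of 76 were above it in nc replicate 1. The members thus shifted together between replicates of the same group. The median of all tested genes deviated less, from -0.04 to 0.07 in PC-9. The FPKM sum over all genes was also highest of this line in nc replicate 1 (342216) and lowest in nc replicate 2 (274907). What part this library scale had in the shift of the members was not tested.

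**Figure D2:**
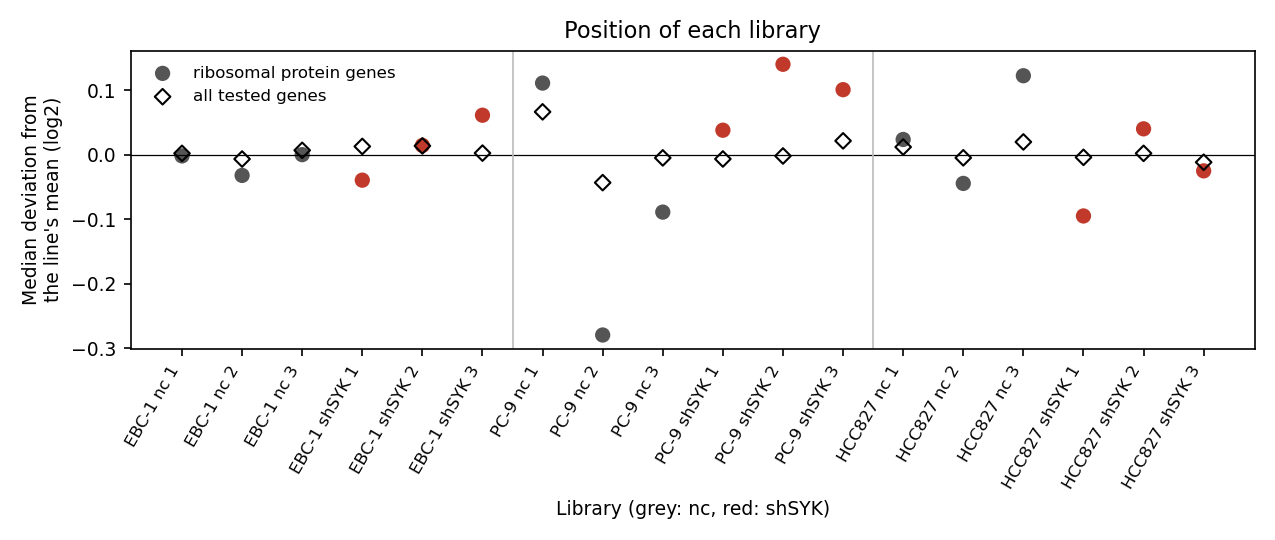
Each circle is the median deviation of the tested members from the mean of the 6 libraries of the line, on the log2 scale, and each diamond is the same for all tested genes. The widest spread within a group was in PC-9 nc libraries, from -0.28 in replicate 2 to 0.11 in replicate 1.

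Single genes were compared with limma on log2(FPKM + 1), for genes with a mean of at least 1 FPKM over the 6 libraries of a line, and called where the p, adjusted over all tested genes by Benjamini-Hochberg, was under 0.05. Of the 85 members, 77, 76 and 78 were tested in EBC-1, PC-9 and HCC827 cells, and 7 were under the filter in every line. A log2 fold change is shSYK minus nc on this scale, with its standard error (SE).

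In EBC-1 cells 12 members were higher and 10 lower in shSYK cells, and 55 were not called. Among all 12430 tested genes, 23.1% were called higher and 21.6% lower, beside 15.6% and 12.99% of the members. The median log2 fold change of the members was 0.02, against 0.01 for all tested genes. The 46 60S genes had a median of 0.05 with 7 higher and 4 lower, and the 30 tested 40S genes a median of -0.06 with 5 higher and 6 lower.

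RPS26, a 40S protein near the mRNA exit channel, rose the most. Its level was 49.3, 40.5 and 50.5 FPKM in nc and 69.0, 75.0 and 78.7 FPKM in shSYK libraries of EBC-1, with no overlap. The log2 fold change was 0.66 (SE 0.099, limma adjusted p = 0.00198). RPS13, a core 40S protein, was at 51.0, 53.5 and 53.6 FPKM in nc and 69.5, 75.1 and 76.8 FPKM in shSYK libraries. All shSYK libraries were above all nc libraries, and the log2 fold change was 0.48 (SE 0.065, limma adjusted p = 0.00142). RPL36A ranked next, from 0.988, 1.12 and 1.07 FPKM to 1.44, 1.68 and 1.97 FPKM, at a log2 fold change of 0.38 (SE 0.11, limma adjusted p = 0.0262), but it is one of the genes with a readthrough partner and few reads. RPS27A, which encodes ubiquitin fused to a 40S protein, RPL6, RPL14, RPL21, RPL7, RPL38, RPL26, RPS25 and RPS24 were the other 9 that rose, by 0.20 to 0.37 on the log2 scale.

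The largest falls in EBC-1 cells were those of RPL13, RPS2 and RPL3. RPL13, of the 60S subunit, was at 206, 192 and 214 FPKM in nc and 161, 169 and 154 FPKM in shSYK libraries. The groups did not overlap, and the log2 fold change was -0.33 (SE 0.069, limma adjusted p = 0.00714). RPS2, a 40S protein at the mRNA entry, was at 854, 757 and 897 FPKM against 686, 710 and 600 FPKM, with a log2 fold change of -0.33 (SE 0.092, limma adjusted p = 0.0235). RPL3, which lies near the peptidyl transferase centre, went from 224, 209 and 233 FPKM to 186, 183 and 176 FPKM, or -0.29 in log2 fold change (SE 0.066, limma adjusted p = 0.0109). The other 7 that fell included RPL18, RPSA, RPS18, RPS28, RPL10 and RPS14. The lower members were abundant, with nc means of 70.7 to 836 FPKM, and the higher ones ranged from 1.06 to 239 FPKM.

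The direction of the EBC-1 calls depended on the scale. With each library set to the same FPKM sum (TPM), which raised the median log2 fold change of all tested genes from 0.01 to 0.13, 32 members were higher and 2 lower, beside 32.2% and 15.2% of all genes. All 12 higher members were still called, and of the 10 lower ones RPL13 and RPL3 were. Relative to all tested genes the median of the members was close to 0 on both scales (0.15 against 0.13 with TPM). The number of lower members went from 10 to 15 without nc replicate 2, and to 2 without nc replicate 1, to 4 without nc replicate 3 or shSYK replicate 2, to 5 without shSYK replicate 1 and to 6 without shSYK replicate 3. The number of higher members fell from 12 to 7 without nc replicate 3 and to 6 without shSYK replicate 2. Shares of all genes are not given for fits with a library left out, so these changes are not read as particular to the members.

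In HCC827 cells 4 members were higher and 10 lower in shSYK cells, and 64 were not called. All 11999 tested genes were called higher in 17.2% and lower in 20.7% of cases, against 5.13 and 12.8% of the members. The median log2 fold change of the members was -0.07, and that of all tested genes -0.01. Values below 0 were seen for 49 of 78 members, with a median of -0.03 for 60S and -0.13 for 40S genes.

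RPL17 led the higher members, with 7.74, 10.7 and 8.21 FPKM in nc and 11.04, 14.2 and 11.3 FPKM in shSYK libraries of HCC827. The groups were separated by a narrow margin, and the log2 fold change was 0.42 (SE 0.13, limma adjusted p = 0.0413). RPS24, a 40S protein mutated in some patients with Diamond-Blackfan anaemia, was at 109, 113 and 97.0 FPKM against 121, 144 and 136 FPKM, or 0.33 in log2 fold change (SE 0.085, limma adjusted p = 0.0199). RPS27A and RPL23 also rose, by 0.24 and 0.22 on the log2 scale.

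RPL10 and RPS9 were among the members with the largest falls in HCC827 cells. RPL10, which joins the 60S subunit late in its maturation, was at 562, 556 and 640 FPKM against 471, 504 and 468 FPKM, or -0.28 in log2 fold change (SE 0.074, limma adjusted p = 0.0212). RPS9, of the 40S body, was at 523, 463 and 579 FPKM against 422, 437 and 426 FPKM, or -0.28 in log2 fold change (SE 0.085, limma adjusted p = 0.0372). RPL3, RPL13A, RPS16, RPS4X, RPS3, RPL7A and RPL18 also fell, and the nc means of the 10 ran from 276 to 1478 FPKM.

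With TPM, 14 members were higher and 10 lower in HCC827 cells, beside 20.6% and 15.8% of all genes, and all 14 calls made with FPKM were kept. The number of higher members was 2 without nc replicate 1, 1 without nc replicate 3, 8 without shSYK replicate 1, and 0 without shSYK replicate 2 or 3. The number of lower members was 15 without nc replicate 2, 1 without nc replicate 1, 3 without nc replicate 3, 2 without shSYK replicate 1 or 3, and 4 without shSYK replicate 2. Shares of all genes are not given for these fits either. Of the 10 lower members in HCC827 cells, 4 were also lower in EBC-1 cells, RPL3, RPL10 and RPL18 among them, which is 40% of either list. Among the other genes, 907 were lower in both lines, 36.6% of the HCC827 and 33.9% of the EBC-1 calls. RPS24 and RPS27A were higher in both lines, 50% of the HCC827 and 16.7% of the EBC-1 list, beside 44.7% and 32.2% for the other genes.

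**Figure D3:**
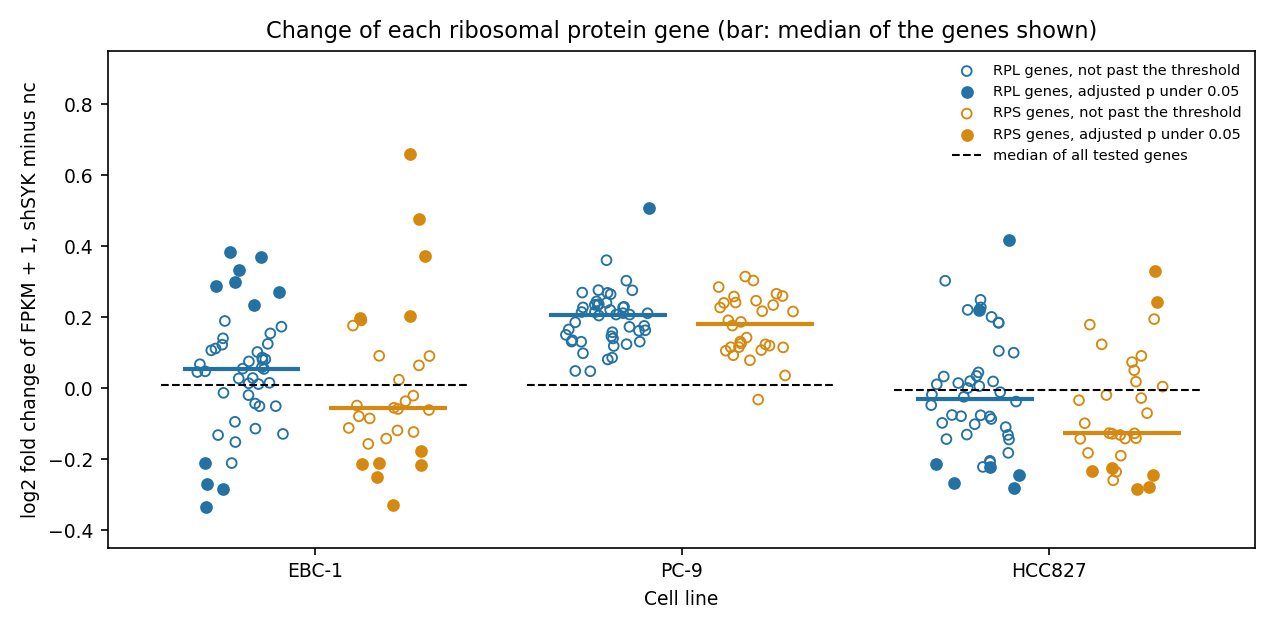
Each circle is a tested ribosomal protein gene, blue for RPL and orange for RPS names, filled where the limma adjusted p was under 0.05. Colored bars are the medians of the genes shown and dashed lines the medians of all tested genes. Members in EBC-1 and HCC827 lie on both sides of 0, and nearly all those in PC-9 lie above it.

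In PC-9 cells 75 of 76 tested members had a log2 fold change above 0, with a median of 0.19, against 0.01 for all tested genes. RPSA was the exception, at -0.03. Only RPL17 was called, higher in shSYK cells, and no member was called lower, beside 0.678% and 1.41% of the 12089 tested genes. At an unadjusted limma p under 0.05 the counts were 5 higher and 0 lower, beside 836 and 1045 of the 12089 tested genes. Limma-voom on the recovered reads called 1 and 0 members, beside 120 and 365 of all tested genes. RPL17 was at 6.32, 5.76 and 5.76 FPKM in nc and 8.59, 8.67 and 9.35 FPKM in shSYK libraries, without overlap, at a log2 fold change of 0.51 (SE 0.090, limma adjusted p = 0.0421). Without nc replicate 3 or any 1 of the shSYK libraries this call was lost, and none of the members was called.

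The common direction in PC-9 cells came with a wide spread between the nc libraries. The median coefficient of variation of the subunit genes was 14.04% over nc and 5.42% over shSYK libraries. Over nc libraries it was 3.80% in EBC-1 and 6.74% in HCC827 cells. RPL13A was at 3601, 2254 and 2788 FPKM in nc and 2917, 2780 and 3080 FPKM in shSYK libraries, so the nc libraries lay on both sides of the shSYK ones. Without nc replicate 1 the median of the members was 0.28, and without nc replicate 2 it was 0.09, both above 0. With all 18 libraries in 1 fit, which pools the spread over the lines, 14 members were called higher and 0 lower in PC-9 cells, beside 5.46% and 7.04% of all genes. They included RPL5, RPL6, RPL14, RPL17, RPL21, RPL23, RPL31, RPL34, RPS7, RPS12, RPS13, RPS15A and RPS27A. With TPM the calls were 1 higher and 0 lower, as with FPKM, beside 1.01% and 2.96% of all genes, and 24 and 0 at an unadjusted limma p under 0.05.

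**Figure D4:**
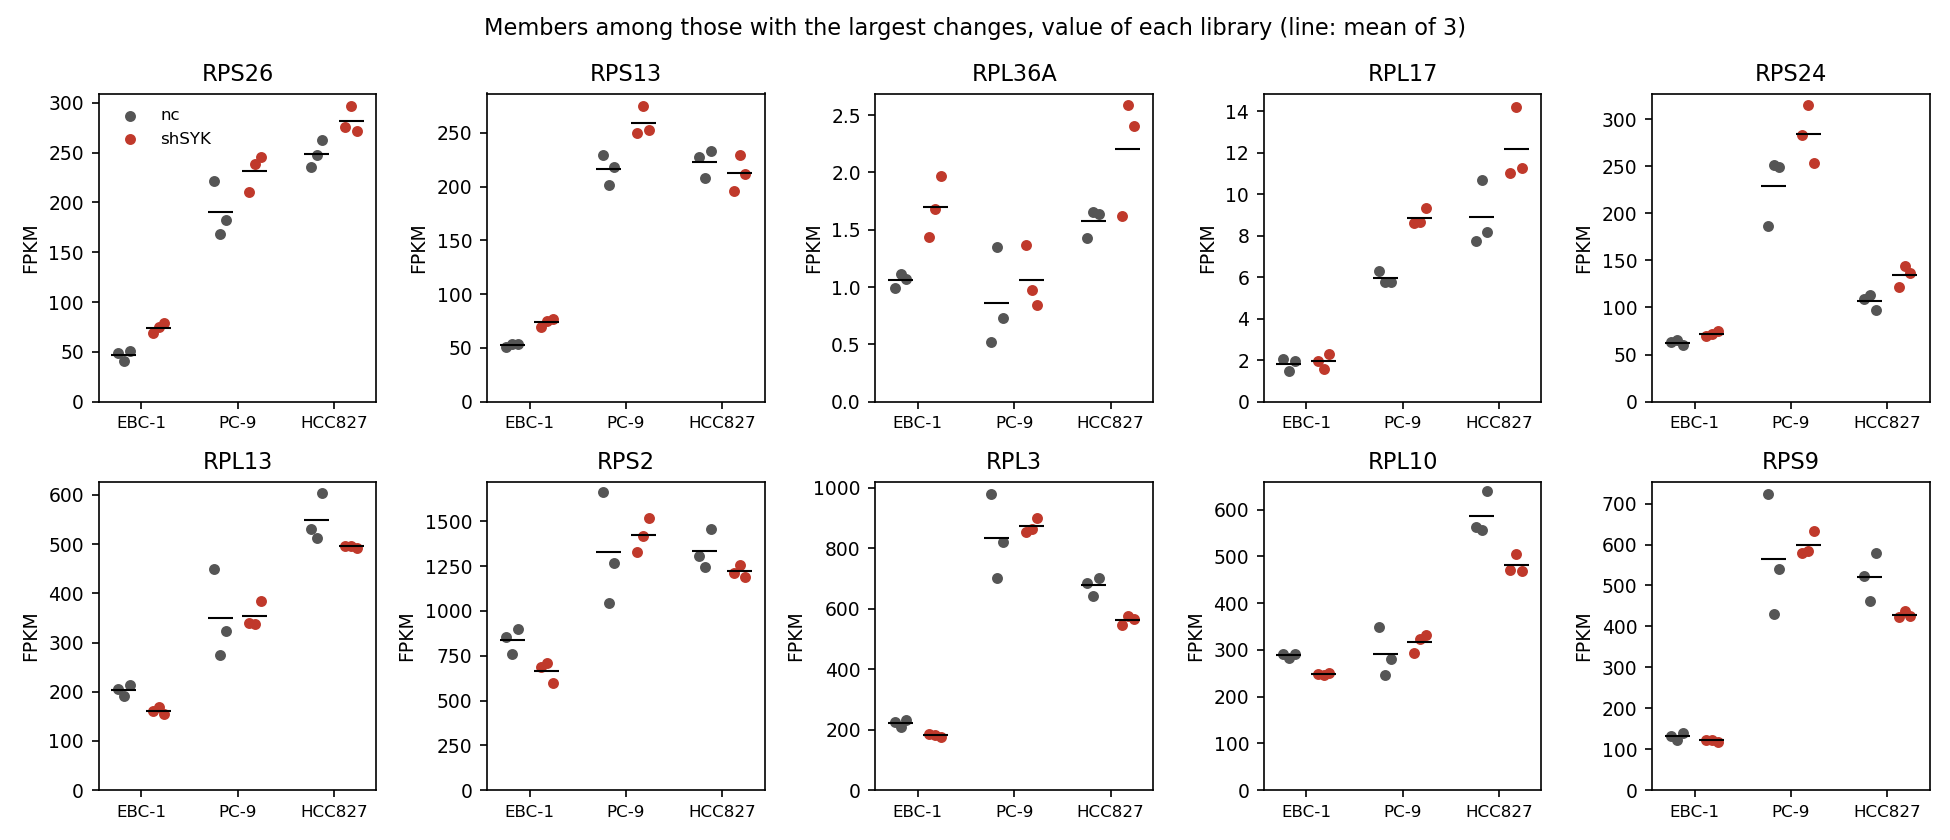
FPKM of 10 members among those with the largest called rises or falls, in each library (grey nc, red shSYK), with the mean of 3 as a line. RPS26 and RPS13 separate the groups in EBC-1, and the nc libraries of PC-9 spread widely for RPS2 and RPS9.

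Members with particular roles were also followed in every line. The stalk proteins RPLP0, RPLP1 and RPLP2, which recruit elongation factors to the 60S subunit, were called in no line. Their log2 fold changes were 0.01, -0.10 and 0.05 in EBC-1, 0.12, 0.21 and 0.21 in PC-9, and 0.01, -0.08 and -0.08 in HCC827 cells. RPLP0 was at 632 ± 32.9 FPKM in nc and 639 ± 33.7 FPKM in shSYK cells of EBC-1 (SD, n = 3).

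RPL5 and RPL11, which with 5S rRNA bind MDM2 when ribosome assembly is disturbed, had log2 fold changes above 0 in every line. For RPL11 they were 0.12, 0.23 and 0.22 in EBC-1, PC-9 and HCC827 cells (limma adjusted p = 0.159, 0.370 and 0.0564), and for RPL5 0.08, 0.21 and 0.10. Neither was called with FPKM. With TPM both were called in EBC-1 and HCC827 cells, RPL11 at 0.26 and 0.28 and RPL5 at 0.21 and 0.17.

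RPL10 fell in EBC-1 and HCC827 cells and was at 292 ± 52.0 FPKM in nc and 317 ± 20.2 FPKM in shSYK cells of PC-9. In EBC-1 cells its levels were 292, 283 and 290 FPKM in nc and 249, 247 and 251 FPKM in shSYK libraries, or -0.21 in log2 fold change (limma adjusted p = 0.0171) that was -0.08 and not called with TPM. RPL13A, which also has a role outside the ribosome in silencing inflammatory transcripts, fell in HCC827 cells (-0.24, limma adjusted p = 0.0470) and was not called in EBC-1 (-0.15) or PC-9 cells (0.05). RPL22 was not called in any line (0.08, 0.17 and 0.10 in EBC-1, PC-9 and HCC827), and neither was RPL41, the shortest of the ribosomal proteins (-0.01, 0.24 and -0.08).

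Among the 40S proteins, RPSA, also known as a laminin receptor, was at 129, 120 and 132 FPKM in nc and 111, 109 and 100 FPKM in shSYK libraries of EBC-1. The groups did not overlap, and the log2 fold change was -0.25 (limma adjusted p = 0.0210), which became -0.12 without a call with TPM. In HCC827 cells RPSA stood at -0.24 (limma adjusted p = 0.0531). RPS6, the target of S6 kinases, was called in no line (0.09, 0.24 and -0.14 in EBC-1, PC-9 and HCC827). RPS27A was higher in EBC-1 (55.5 ± 2.93 against 72.1 ± 3.49 FPKM, log2 fold change 0.37, limma adjusted p = 0.00470) and in HCC827 cells (320 ± 6.22 against 379 ± 27.2 FPKM, 0.24, limma adjusted p = 0.0258), and at 0.25 in PC-9 cells it was not called. RPS27 and RPS19 were not called in any line, with log2 fold changes from -0.18 to 0.12.

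The changes followed the base composition of the transcripts. Over members, log2 fold change and the G+C content of the canonical transcript (GENCODE v44) had a Pearson r of -0.53 in EBC-1 (Spearman rho -0.59, n = 77 genes), -0.48 in PC-9 (-0.52, n = 76) and -0.58 in HCC827 cells (-0.62, n = 78). Over the other tested genes r was -0.47, -0.26 and -0.32. The genes of a line share the same 6 libraries and are not independent replicates. In EBC-1 cells the 12 higher members had 40.3 to 50.1% G+C and the 10 lower ones 47.6 to 59.6%, and in HCC827 cells the 4 higher had 41.5 to 44.1% and the 10 lower 45.02 to 59.3%.

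Divided by G+C content, the 26 members with 51.9% or more had medians of -0.12 in EBC-1 (0 higher, 7 lower), 0.12 in PC-9 and -0.16 in HCC827 cells (0 higher, 7 lower). The 26 members with 45.5% or less had medians of 0.10 in EBC-1 (8 higher, 0 lower), 0.23 in PC-9 and 0.03 in HCC827 cells (4 higher, 1 lower). Other genes of the upper range (51.9 to 63.5% G+C) were called higher and lower in 7.37% and 36.9% in EBC-1 and in 7.18% and 35.8% in HCC827 cells, against 0% and 26.9% of these members in both lines. Other genes of the lower range (40.1 to 45.5% G+C) were called in 38.8% and 6.85% in EBC-1 and in 26.2% and 8.21% in HCC827 cells, against 30.8% and 0% and against 15.4% and 3.85% of these members. In PC-9 cells the medians of the other genes were -0.05 in the upper and 0.06 in the lower range. The libraries differed in composition in the same sense. The read-weighted mean G+C of all other nuclear genes was 52.7 to 53.7% in nc and 51.5 to 52.4% in shSYK libraries of EBC-1, and 51.7 to 52.1% against 51.0 to 51.3% in HCC827. In PC-9 it was 51.1 to 53.4% in nc, highest in replicate 1, and 51.4 to 52.1% in shSYK libraries. What part composition had in the members' changes was not tested beyond the following fit.

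When a smooth trend of log2 FPKM on G+C was removed from each library, 18 members were higher and 12 lower in EBC-1 cells, beside 22% and 20.5% of all genes, and their median log2 fold change was -0.0011. Of the 12 members called higher before, 7 were still higher, RPS26, RPS13, RPL6, RPL14, RPL38, RPS25 and RPS27A, and of the 10 lower, 5 were still lower, RPL13, RPL3, RPL10, RPSA and RPS14. After this step the changes of the members had an r of 0.33 with G+C in EBC-1 and 0.06 in HCC827 cells. In HCC827 cells 0 were higher and 3 lower, RPS3, RPS4X and RPL10, beside 13.2% and 17.2% of all genes, with 6 higher and 12 lower at an unadjusted limma p under 0.05 and a median of -0.06. In PC-9 cells 2 were higher and 0 lower, beside 3.11% and 4.82% (17 and 0 at an unadjusted limma p under 0.05), and the median was 0.19 as before. The share of all genes at the unadjusted threshold is not given for this step. By subunit, the medians of 60S and 40S genes were -0.0043 and -0.0018 in EBC-1 cells, against 0.05 and -0.06 before. In HCC827 cells they were -0.06 and -0.05, against -0.03 and -0.13, and in PC-9 cells 0.18 and 0.19, against 0.21 and 0.18.

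**Figure D5:**
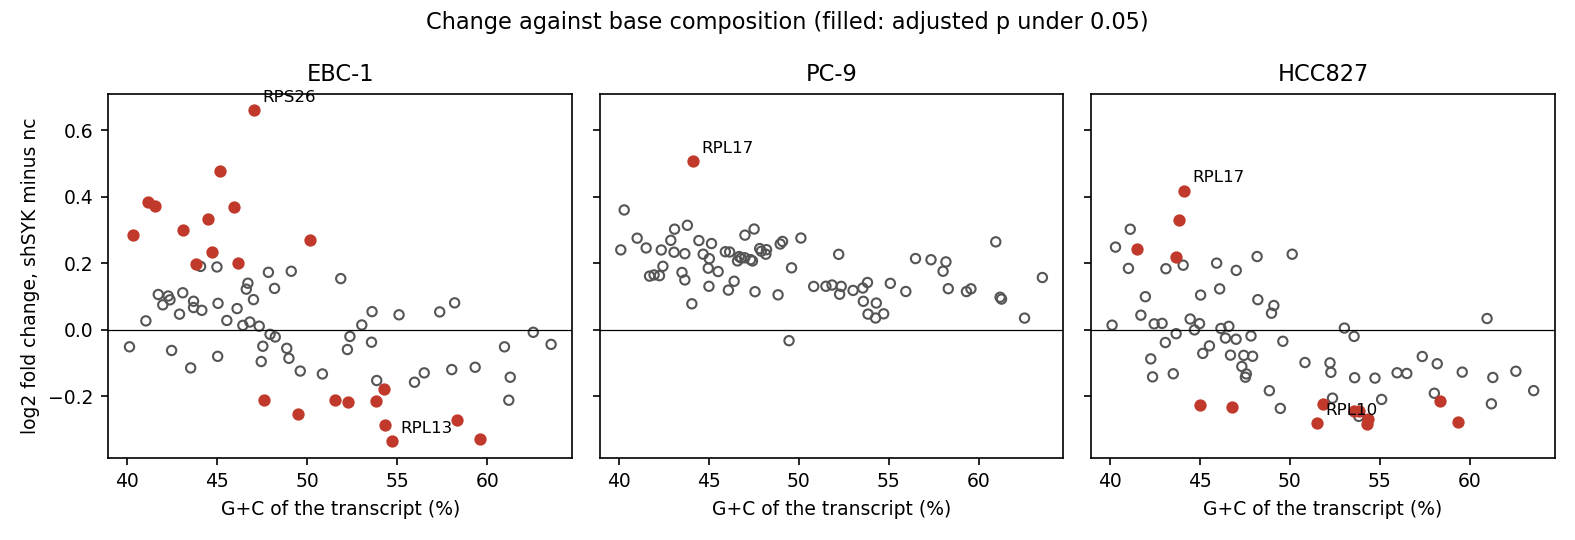
The log2 fold change of each tested member is plotted against the G+C percent of its canonical transcript in EBC-1, PC-9 and HCC827 cells, filled where the limma adjusted p was under 0.05. The points slope down in all 3 lines (r = -0.53, -0.48 and -0.58), and those of PC-9 lie almost entirely above 0.

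The changes of the members were alike between lines that share no library. Over members, log2 fold changes in EBC-1 and HCC827 cells had r = 0.65 (n = 77 genes), in EBC-1 and PC-9 cells 0.57 (n = 76), and in PC-9 and HCC827 cells 0.69 (n = 76), against 0.34, 0.34 and 0.46 over all other genes. With the G+C trend removed they were 0.46, 0.44 and 0.57 over members and 0.20, 0.23 and 0.40 over other genes. The members share base composition and their pseudogenes across lines, and no p is given.

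The difference of the shSYK effect between lines was tested in 1 limma fit over all 18 libraries. It passed the threshold for 3 of 77 members between EBC-1 and HCC827, for 1 between EBC-1 and PC-9 and for 1 between PC-9 and HCC827, beside 21.8%, 19.8% and 7.5% of 12672 genes. The fit uses 1 variance per gene for all lines, so the SE does not follow the spread of the lines compared. That spread differed, with median coefficients of variation over nc libraries of 3.80%, 14.04% and 6.74% in EBC-1, PC-9 and HCC827 cells. RPS13 and RPS26 differed most between EBC-1 and HCC827, by 0.55 (SE 0.11, limma adjusted p = 0.00209) and 0.48 (SE 0.15, limma adjusted p = 0.0316). RPS13 was at 227, 208 and 233 FPKM in nc and 196, 230 and 212 FPKM in shSYK libraries of HCC827, overlapping groups, unlike in EBC-1. RPL14 was the third, at 0.30. RPS4X differed by 0.45 between PC-9 and HCC827 (SE 0.12, limma adjusted p = 0.0256). RPS4X, the X-linked form of a 40S protein, was at 850, 784 and 841 FPKM in nc and 687, 727 and 691 FPKM in shSYK libraries of HCC827.

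These counts turned on PC-9 nc replicate 1. Without it, 32 members differed between EBC-1 and PC-9 and 42 between PC-9 and HCC827, all with the higher value in PC-9, beside 36.2% and 18.9% of all genes, and 5 differed between EBC-1 and HCC827. For this last pair, and for the other fits of this paragraph, the share of all genes is not given. Between EBC-1 and HCC827 the count was also 5 without PC-9 nc replicate 2, and 1 without EBC-1 shSYK replicate 2 or 3, HCC827 nc replicate 2 or 3, or HCC827 shSYK replicate 1 or 3. The 1 difference between EBC-1 and PC-9 was lost without EBC-1 nc replicate 1 or 3, EBC-1 shSYK replicate 1, PC-9 nc replicate 3 or any PC-9 shSYK library, and became 2 without EBC-1 nc replicate 2 or shSYK replicate 2. The 1 difference between PC-9 and HCC827 was lost without PC-9 nc replicate 3, PC-9 shSYK replicate 2 or 3, HCC827 nc replicate 1 or 3, or HCC827 shSYK replicate 1, and became 2 without EBC-1 shSYK replicate 2 or HCC827 nc replicate 2.

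Of the members that are not subunit proteins, RPS19BP1 was tested in every line and called in none (-0.01, 0.04 and -0.12 in EBC-1, PC-9 and HCC827). The 3 readthrough genes, named RPL17-C18orf32, RPL36A-HNRNPH2 and RPS10-NUDT3, with RPL3L, RPL10L and the Y-linked genes were the 7 under the filter in every line. RPS10 passed it only in HCC827 cells, at 1.01 ± 0.337 FPKM in nc and 0.989 ± 0.354 FPKM in shSYK cells, and RPL36A in EBC-1 and HCC827 cells, where its log2 fold change was 0.38 (called) and 0.30 (not called).

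The 6 paralogues left out by the rule were read beside them. All 6 had log2 fold changes above 0 in EBC-1 cells, and RPL36AL (57.1 ± 6.88 to 82.2 ± 7.57 FPKM, 0.52, limma adjusted p = 0.00650) and RPL22L1 (3.09 ± 0.562 to 4.85 ± 0.426 FPKM, 0.52, limma adjusted p = 0.00960) rose. RPL22L1, which can replace RPL22 in the ribosome, was also the 1 paralogue that rose in PC-9 cells, from 43.4 ± 4.78 to 68.5 ± 3.37 FPKM (0.65, limma adjusted p = 0.0433). In HCC827 cells RPL39L, RPL26L1, RPS27L and RPL36AL rose, led by RPL39L from 22.1 ± 1.99 to 31.0 ± 1.61 FPKM (0.47, limma adjusted p = 0.00312). Of the 6, 33.3%, 16.7% and 66.7% were called higher in EBC-1, PC-9 and HCC827 cells, beside 23.1%, 0.678% and 17.2% of all tested genes. None was called lower in any line, beside 21.6%, 1.41% and 20.7% of all tested genes.

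Other genes of ribosome production were counted in lists chosen with earlier results of these data known. Of 26 tested TOP mRNA genes that are not members, 11 were higher and 2 lower in EBC-1, 0 and 0 in PC-9, and 9 and 0 in HCC827 cells, with medians of 0.16, 0.17 and 0.04. The higher share was 42.3% in EBC-1 and 34.6% in HCC827 cells, beside 23.1% and 17.2% of all tested genes. The lower share was 7.69% and 0%, beside 21.6% and 20.7%. EIF2S3, a subunit of the initiation factor eIF2, rose most in EBC-1 and HCC827 cells (0.79 and 0.60), followed by EIF3E in EBC-1 (0.71) and SNHG1 in HCC827 cells (0.47). EEF2, the elongation factor of translocation, fell most in EBC-1 cells (-0.55, limma adjusted p = 0.00356). In PC-9 cells all 26 had a log2 fold change above 0. An unadjusted limma p under 0.05 was passed by 3 of them, beside 836 higher and 1045 lower of the 12089 tested genes.

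Of 50 ribosome biogenesis factors, 26 were higher and 1 lower in EBC-1 cells, 0 and 0 in PC-9 cells, and 9 and 7 in HCC827 cells. These are 52% higher and 2% lower in EBC-1 cells, beside 23.1% and 21.6% of all tested genes, and 18% and 14% in HCC827 cells, beside 17.2% and 20.7%. TAF1D, of the RNA polymerase I factor SL1, and NOP58, a box C/D snoRNP core protein, rose most in EBC-1 cells (1.14 and 0.86), and the fall was that of FBL, the rRNA 2′-O-methyltransferase (-0.33). SBDS (0.46), which releases eIF6 from the 60S subunit, and RRP9 (-0.41) had the largest changes in HCC827 cells. Median log2 fold changes were 0.26, 0.09 and 0.02 in EBC-1, PC-9 and HCC827 cells, against 0.02, 0.19 and -0.07 for the members.

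The proteins of the mitochondrial ribosome, which is a separate particle, gave 22 higher and 7 lower of 77 in EBC-1, 0 and 0 of 75 in PC-9, and 17 and 8 of 76 in HCC827 cells, with medians of 0.14, 0.09 and 0.01. In EBC-1 cells 28.6% were higher and 9.09% lower, in HCC827 cells 22.4% and 10.53%, and the higher shares lay near the 23.1% and 17.2% of all tested genes. The lower shares lay under the 21.6% and 20.7% of all tested genes. MRPL50 and MRPL1 rose most in EBC-1 cells (0.71 and 0.68), and MRPL1 (0.75) and MRPL33 (0.52) in HCC827 cells. Of the regulators of ribosome synthesis, 4 of 13 were higher and 3 lower in EBC-1 cells, 1 of 14 was lower in PC-9 cells, and 1 of 14 was higher and 3 lower in HCC827 cells, shares of 30.8% and 23.1%, 0% and 7.14%, and 7.14% and 21.4%. The shares of all tested genes were 23.1% and 21.6%, 0.678% and 1.41%, and 17.2% and 20.7%. EIF4EBP1, a translational repressor under mTOR, fell in EBC-1 cells from 143 to 83.1 FPKM (-0.78, limma adjusted p = 0.000507), with LARP4 higher (0.70) and MYC, a transcriptional activator of ribosomal protein genes, lower (188 to 122 FPKM, -0.62). EIF4EBP2 fell in PC-9 (-0.75) and HCC827 cells (-0.85) and rose in EBC-1 cells (0.43), and TSC2, an inhibitor of mTOR signalling, fell in HCC827 cells (-0.36). Where no gene of these lists was called in PC-9 cells with limma, limma-voom on the recovered reads called 0 as well, and an unadjusted limma p under 0.05 was met by 4 biogenesis factors and 7 mitochondrial ribosomal proteins, and by 2 regulators above 0. Of all 12089 tested genes of PC-9 cells, 836 were higher and 1045 lower at that threshold.

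The listed pseudogenes of ribosomal protein genes were read as a control of shared reads. With a mean of 1 FPKM or more, 53, 54 and 70 were tested in EBC-1, PC-9 and HCC827 cells. The calls were 3 higher and 7 lower (5.66% and 13.2%), 0 and 0, and 2 higher and 5 lower (2.86% and 7.14%), in EBC-1 and HCC827 cells under the shares of all tested genes. In PC-9 cells 5 were higher and 0 lower at an unadjusted limma p under 0.05, beside 836 and 1045 of the 12089 tested genes, and limma-voom called 0 pseudogenes. Their median log2 fold changes were 0.03, 0.15 and 0.08. In PC-9 cells this median was close to the 0.19 of the members, and whether those reads came from the pseudogenes or from the members was not tested. The 28 tested members with small nucleolar RNA genes inside them had medians of 0.04, 0.19 and -0.06, and the members without them 0.01, 0.21 and -0.08.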

How the data were processed

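TRIzol-extracted RNA was sequenced by Novogene (Illumina HiSeq), with hg38 as the genome of the alignment. The submitters' processing notes name CASAVA, HISAT2, hg19, hg38, GRCh37 and GRCh38, and the counting program and annotation release are not given in the sources used here. The authors deposited FPKM per gene and library in 3 tables. Reads per gene were recovered from the FPKM steps (100% of low values whole within 0.1) and gave the depths, whose precision covers counting error only.

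Genes at a mean of 1 FPKM or more were tested on log2(FPKM + 1), a scale that understates changes of low genes, with limma 3.58.1 in R 4.3.3 (variance trend, two-sided, Benjamini-Hochberg). The fit was tried on simulated data with the same dispersion for every gene and changes larger than any called for a member. That trial does not cover the small changes and the spread of the members. Differences between lines used all 18 libraries. G+C content came from GENCODE v44 canonical transcripts, with a lowess span of 0.3. Named were 14 fixed members, the 3 largest called rises and falls per line, the 2 largest called differences per pair of lines and the 2 largest called changes per list. RPL7, RPS20, RPS29, RPL37, RPL14, MYC, EEF2, FBL and members listed with a count were named after their values were seen. A few items that these rules name are not reported here. Members and lists were chosen with earlier results of these data known. Tables and figures used Python 3.11.15, pandas 2.3.3 and matplotlib 3.10.9. Alternatives were another pseudocount, filters, scalings, variance settings, a replicate block, limma-voom, length and G+C trends, and leaving out each library.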

Additional observations from a re-analysis of the deposited data

Results flagged for a closer look

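The shSYK effect on ribosomal protein genes was compared between lines. By limma's test of the difference over all 18 libraries, with Benjamini-Hochberg adjustment over all genes, it differed for 3 members between EBC-1 and HCC827 cells, for 1 between EBC-1 and PC-9 cells and for 1 between PC-9 and HCC827 cells, of 77 members, beside 21.8%, 19.8% and 7.5% of 12672 genes. The difference of log2 fold changes (first line minus second) was 0.55 for RPS13 and 0.48 for RPS26 between EBC-1 and HCC827, and 0.45 for RPS4X between PC-9 and HCC827. Without PC-9 nc replicate 1 the counts were 5, 32 and 42, and the shares of all genes for the pairs with PC-9 were 36.2% and 18.9%. For EBC-1 against HCC827 that share is not given.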

How the results depend on the processing

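The main counts of higher and lower members were 12 and 10 in EBC-1, 1 and 0 in PC-9, and 4 and 10 in HCC827, and the counts of members differing were 1 for EBC-1 against PC-9, 3 for EBC-1 against HCC827 and 1 for PC-9 against HCC827. With no filter, EBC-1 gave 5 lower, PC-9 0 higher, HCC827 0 higher and 0 lower, and EBC-1 against PC-9 and PC-9 against HCC827 gave 0 differing. A filter at 5 FPKM gave 7 higher in HCC827. With TPM, EBC-1 gave 32 higher and 2 lower (median 0.15), HCC827 14 higher, and the pairs 4, 10 and 3. With equal sums over non-members, EBC-1 gave 32 and 1 (median 0.15), HCC827 14 higher, and the pairs 3, 10 and 3. Centring on the median gave 8 higher in HCC827 and 4 differing for EBC-1 against PC-9. Quantile normalization gave 28 and 2 in EBC-1 (median 0.17, 0.15 above all genes), 12 and 6 in HCC827 (median 0.0223, 0.0103 above all genes), and 6, 13 and 0 for the pairs, and it turned RPL13A (0.21), RPL41 (0.28) and RPS2 (0.0942) upward in EBC-1. The fit of all 18 libraries gave 2 lower in EBC-1, 14 higher in PC-9 and 3 lower in HCC827. Limma-voom gave 22 and 4 in EBC-1 (median 0.11), 16 higher in HCC827, and 5, 5 and 3 for the pairs. Removing the length trend gave 9 and 5 in HCC827 and 4 for EBC-1 against PC-9. Removing the G+C trend gave 2 higher in PC-9, 0 and 3 in HCC827, 9 for EBC-1 against PC-9 and 6 for PC-9 against HCC827, and it turned RPL22 (-0.15) and RPS6 (-0.12) downward in EBC-1. Asking for a fold of 1.5 as well left 1 and 0 in EBC-1, 0 in PC-9 and 0 and 0 in HCC827. Leaving out 1 library gave 6 to 11 higher and 2 to 15 lower in EBC-1, 0 to 1 higher in PC-9, 0 to 8 higher and 1 to 15 lower in HCC827, and 0 to 32, 1 to 5 and 0 to 42 for the pairs, with medians of 0.00091 to 0.0504 in EBC-1, 0.0878 to 0.282 in PC-9 and -0.108 to -0.0164 in HCC827. Such fits hold fewer samples, and for the other settings the cause was not tested. Counts not given here stayed within 1.5 times the main count.

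The labels give nc and shSYK libraries the same replicate numbers without saying that a number marks a shared culture. Deviations of same-numbered libraries correlated at 0.03, -0.16 and -0.22 in EBC-1, -0.05, 0.33 and -0.12 in PC-9 and 0.00, 0.06 and 0.02 in HCC827, so the numbers were not taken as pairs, and not every library correlated best with its own number. With the replicate block the counts were 7 higher and 2 lower in EBC-1, 0 higher in PC-9, 2 and 2 in HCC827, and 0 for PC-9 against HCC827. Among 1006 values of named members under the alternatives, 96 lost a call, 39 gained one and 5 changed sign with a call.

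The comparison rests on 1 shRNA and 3 libraries a group. FPKM is relative to each library, and total RNA per cell was not measured. How reads shared with pseudogenes and readthrough genes were assigned is not given in the sources used here. RPS10, RPL36A and RPL17 rest on few reads, as few as 5, 17 and 46 in a library, so counting error is larger for them.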
